A study of Mus musculus with 6 samples.

Results

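The regions described here are 1000 ATAC-seq peaks of mouse small intestinal crypts at which the libraries numbered 2, 1 from each genotype, stood above the other 4 libraries. They were chosen by a score, the mean log2 accessibility of WT2 and KO2 minus the mean of WT1, WT3, KO1 and KO3 after quantile normalization, and are the 1000 highest of 122141 autosomal peaks (0.819%), out of 123510 peaks in all. ATAC-seq counts the cuts that a transposase makes in open DNA. Nuclei of whole crypts came from C57BL/6 mice, males per the study's methods, in 2 groups of 3 libraries with 50000 cells each. WT mice carried functional Smarcad1, and in Smarcad1-KO mice Cre driven by the Villin promoter removed floxed exons of Smarcad1, a SNF2-family chromatin remodeller, in the intestinal epithelium only, so that immune and stromal cells of a crypt preparation kept the gene. Ages are not given in the sources used here, and what a replicate number stands for is not stated.

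Open chromatin in the gut epithelium lies at gene promoters and at distal enhancers bound by CDX, GATA, HNF and AP-1 family factors. Enhancers differ between stem cells, secretory cells and absorptive enterocytes, whereas most promoters are open in all of them. A crypt preparation also holds intraepithelial T cells and other cells of the mucosa, and its mix of cells differs from one preparation to the next.

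The sequences show what kind of DNA scored highest. The 3 members with the highest scores are shown first, as the plus strand of GRCm38 with matches to any motif named further on in capitals. They lie at chr5:100396651-100396950 in an intron of Sec31a, at chr17:34776526-34776825 over an exon of Tnxa, and at chr1:74355151-74355450 in the intergenic DNA upstream of Pnkd.
Sec31a peak: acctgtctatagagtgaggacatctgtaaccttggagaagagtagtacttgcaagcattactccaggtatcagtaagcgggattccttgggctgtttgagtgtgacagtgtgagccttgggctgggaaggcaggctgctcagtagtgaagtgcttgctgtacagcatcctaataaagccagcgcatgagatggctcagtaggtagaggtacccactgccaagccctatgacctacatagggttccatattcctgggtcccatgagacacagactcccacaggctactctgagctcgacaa
Tnxa peak: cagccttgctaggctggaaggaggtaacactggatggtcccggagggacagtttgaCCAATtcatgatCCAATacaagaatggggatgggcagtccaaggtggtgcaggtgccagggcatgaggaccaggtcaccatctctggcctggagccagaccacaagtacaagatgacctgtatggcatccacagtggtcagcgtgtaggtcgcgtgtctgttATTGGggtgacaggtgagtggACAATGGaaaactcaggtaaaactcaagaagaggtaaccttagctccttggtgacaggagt
Pnkd peak: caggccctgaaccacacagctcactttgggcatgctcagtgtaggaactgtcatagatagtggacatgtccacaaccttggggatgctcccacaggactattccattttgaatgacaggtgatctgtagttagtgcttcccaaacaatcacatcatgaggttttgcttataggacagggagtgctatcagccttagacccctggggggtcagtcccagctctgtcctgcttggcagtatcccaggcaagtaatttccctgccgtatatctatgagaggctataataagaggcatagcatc
The Tnxa window held 4 matches, to the NF-Y and SOX motifs, and the other windows held no match.

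The letters GAGCTGGCC, found on either strand in 49 members, were picked after comparing the words in members with those in all peaks. Of these, 3 members with more than 1 copy are shown with those letters in capitals, at chr6:88540351-88540650, at chr16:3729226-3729525 near AC139347.1 and at chr3:122396926-122397225.
Chromosome 6 peak: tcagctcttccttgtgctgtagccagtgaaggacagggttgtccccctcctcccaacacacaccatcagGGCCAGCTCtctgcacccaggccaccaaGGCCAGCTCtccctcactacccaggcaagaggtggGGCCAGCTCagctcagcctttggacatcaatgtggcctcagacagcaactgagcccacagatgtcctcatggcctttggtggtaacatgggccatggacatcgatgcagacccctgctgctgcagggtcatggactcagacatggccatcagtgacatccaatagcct
AC139347.1 peak: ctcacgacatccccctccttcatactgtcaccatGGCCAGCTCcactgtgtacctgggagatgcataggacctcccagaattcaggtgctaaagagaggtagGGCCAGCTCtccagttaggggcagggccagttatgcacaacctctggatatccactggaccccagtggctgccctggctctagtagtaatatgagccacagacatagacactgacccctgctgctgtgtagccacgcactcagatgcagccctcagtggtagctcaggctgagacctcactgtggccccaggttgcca
Chromosome 3 peak: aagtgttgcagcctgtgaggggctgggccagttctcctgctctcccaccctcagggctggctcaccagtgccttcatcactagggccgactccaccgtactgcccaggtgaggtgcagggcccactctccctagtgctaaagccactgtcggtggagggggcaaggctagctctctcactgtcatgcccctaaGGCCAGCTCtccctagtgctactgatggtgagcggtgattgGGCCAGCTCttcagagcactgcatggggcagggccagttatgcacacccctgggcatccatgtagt
The strongest members held another recurring sequence, shown here with AAACGTGA in capitals, at chr9:35305276-35305575 in an intron of Gm33838 and at chr14:19417501-19417800 in AC242409.1.
Gm33838 peak: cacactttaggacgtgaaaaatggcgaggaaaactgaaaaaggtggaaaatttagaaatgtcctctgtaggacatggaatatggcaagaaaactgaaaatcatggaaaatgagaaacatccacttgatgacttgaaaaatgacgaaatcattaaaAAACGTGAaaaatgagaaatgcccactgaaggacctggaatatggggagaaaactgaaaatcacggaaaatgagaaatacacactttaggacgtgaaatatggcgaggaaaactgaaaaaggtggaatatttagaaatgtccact
AC242409.1 peak: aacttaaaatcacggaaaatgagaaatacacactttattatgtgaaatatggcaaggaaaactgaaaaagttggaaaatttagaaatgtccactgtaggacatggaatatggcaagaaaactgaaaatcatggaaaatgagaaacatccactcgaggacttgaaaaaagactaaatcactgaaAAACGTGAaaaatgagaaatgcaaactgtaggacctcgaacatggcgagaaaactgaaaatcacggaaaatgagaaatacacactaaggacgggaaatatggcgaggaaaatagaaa
Both windows are built of the AT-rich tandem unit known as the mouse major satellite of pericentromeric heterochromatin, a name given here from general knowledge, since no repeat annotation was used.

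Before the results, several measurements of the libraries bear on them. Reads in peaks numbered between 4339306 (KO3) and 16301164 (WT3), with 6180717 in WT2 and 7721797 in KO2. The number 2 libraries were thus neither the deepest nor the shallowest. At autosomal peaks they had the lowest medians of deposited log2 values, 5.63 in WT2 and 5.69 in KO2 against 5.825 to 5.93 elsewhere. Their SDs of log2 were also the smallest, 1.22 and 1.14 against 1.23 to 1.48. Whether these traits have a part in the score was not tested. The first principal component, with 37.9% of the variance, put WT2 at 90.7 and KO2 at 98.7, KO1 at 2.03 and the other 3 libraries between -76.4 and -53.4. All mice are described as males, yet accessibility at the Y-linked gene Uty stood at 3.98 in KO2 and 5.88 in WT2, against 6.98 to 7.55 in the other 4 libraries (log2 as deposited), and KO2 was also the lowest library at Eif2s3y and Ddx3y with WT2 next. Whether this has a part in the choice of members was not tested, and the score used autosomes alone. Without KO2 616 of the 1000 members stayed in the top 1000, and without WT2 607.

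The 1000 scores ran from 1.04 to 2.00 with a median of 1.17, where the SD over all autosomal peaks was 0.417. The median member stood at 5.97 in WT2 and 6.02 in KO2, against 4.72 in WT1, 4.64 in WT3, 5.29 in KO1 and 4.86 in KO3 (quantile-normalised log2). KO1 was thus the nearest of the other libraries. Both number 2 libraries stood above all other 4 in 924 members (92.4%), an order that the choice by score favours. It held at 14.8% of all autosomal peaks and at 0 of the 1000 lowest scores. The excess over same-genotype libraries had a median of 1.34 in WT and 1.06 in KO. At the edge of the choice, an intronic Slc25a12 peak was the last inside and an intronic Lyzl4 peak the first outside, both at 1.04. The plot of levels by library shows these medians beside those of all peaks and of the 1000 lowest scores.

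**Figure D1:**
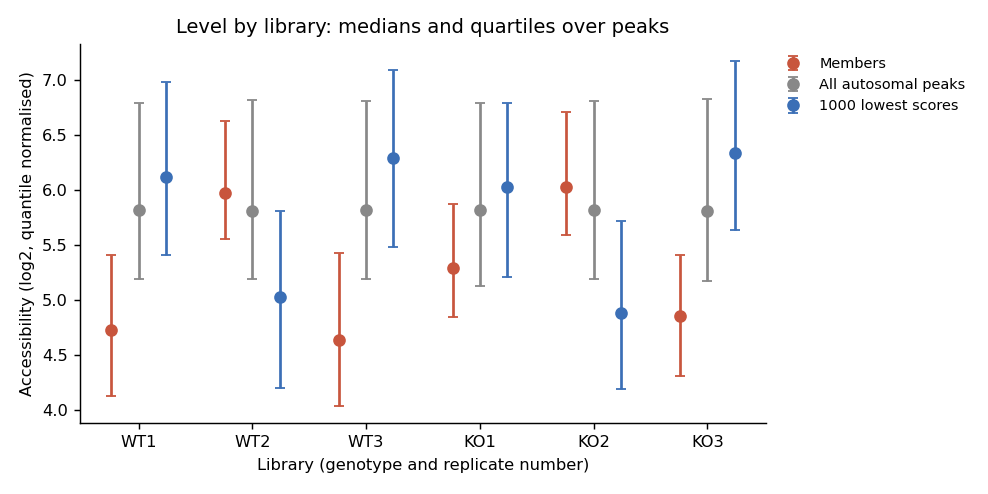
Median (points) and quartiles (bars) over peaks of the quantile-normalised log2 accessibility in each of the 6 libraries, for the 1000 members, all 122141 autosomal peaks and the 1000 peaks with the lowest scores. Members stood at 5.97 and 6.02 in WT2 and KO2 and between 4.64 and 5.29 in the other libraries, while the lowest scores gave the opposite order.

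The excess of one number 2 library was also read at peaks chosen on the other genotype. This splits the same 6 columns, whose shared pattern was known, and is a description. The top 1000 peaks were therefore chosen again on the WT libraries alone, and in the KO libraries KO2 stood above both KO1 and KO3 at 720 of them (72.0%), against 36.6% of all autosomal peaks. The median KO excess at these peaks was 0.555 (quartiles 0.246 and 0.896), against 0.021 over all peaks. Chosen on KO alone, 703 peaks (70.3%) had WT2 above WT1 and WT3, against 37.0% of all peaks, with a median WT excess of 0.602 (quartiles 0.126 and 1.02). The 2 choices named largely different peaks, since 116 were shared, 11.6% of each. Of the peaks chosen on WT 517 were members, and of those chosen on KO 397. Without quantile normalization the count in WT was 439 (43.9%), against 15.4% of all peaks. Each choice rests on 1 library against a pair, and there is no replicate of number 2 within a genotype.

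**Figure D2:**
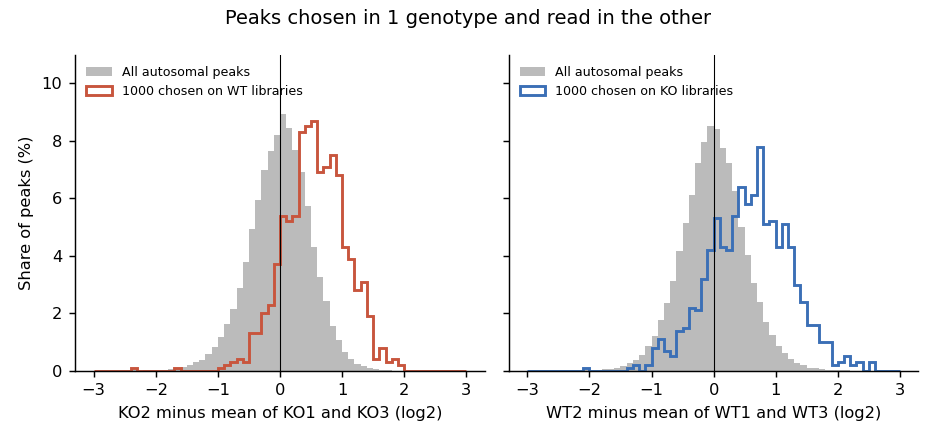
Excess of the number 2 library over the mean of the other libraries of its genotype (log2), in KO for 1000 peaks chosen on WT libraries (left) and in WT for 1000 peaks chosen on KO libraries (right), with all autosomal peaks in grey as shares of peaks (%). Both outlined distributions lie to the right of 0, with medians of 0.555 and 0.602.

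Members were weak, narrow peaks. Their mean level over the 6 libraries had a median of 5.12, against 5.77 for all autosomal peaks, and 27.1% lay above the median of all peaks. Peaks were split by level into 5 bins of equal size, and 1.84% of the weakest bin were members against 0.262% of the strongest. The spread of the score was widest in the weakest bin, with an SD of 0.464 against 0.396 to 0.421 in the others. The median width was 450 bases against 750, and 33.0% had the smallest width of 300 bases, against 16.4% of all peaks. In reads, the median member held 30 in WT2 and 41 in KO2, but 15 in WT1, 28 in WT3, 18 in KO1 and 7 in KO3. Counting error is therefore large at single members, and 101 members had at least 20 reads in every library.

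The share with a gene name was higher in members than elsewhere. Names in the deposited table are those of genes within 5 kb, although some peaks inside annotated genes, such as the one over Tnxa, carry none. 677 members (67.7%, exact 95% interval 64.7 to 70.6) had a name, against 49.95% of all autosomal peaks and 51.4% of the 1000 lowest scores. The interval covers counting error only. The names comprised 619 genes. In the 4 weaker bins of level, named members were between 60.4% and 74.8%, against 33.0% to 57.6% of all peaks there, but in the strongest bin the shares were 71.9% and 77.1%. The surplus lay inside genes, as 41.0% of members overlapped introns (32.1% of all peaks) and 22.4% exons (19.8%). Intergenic peaks made up 36.6% (48.1%). The lowest scores had 37.6% in introns, also above all peaks, but 14.8% in exons and 47.6% in intergenic DNA. Promoter peaks, within 1 kb of a gene start, made up 8.5% of members (6.85 to 10.4) against 13.5% of all peaks, and 8.6% of the lowest scores, so this share was not particular to members. The median distance to the nearest gene start was 11.9 kb against 18.2 kb. Against all peaks, members thus lay more often in gene bodies and less often at gene starts. All peaks and the lowest scores also lay more often in gene bodies than at gene starts. In the strongest bin of level the intergenic shortfall was reversed, with 37.5% of members against 22.5% of all peaks.

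Members also lay in GC-rich DNA, except in the strongest bin of level. The central 300 bases had a median GC content of 52.3%, against 48.7% for all peaks and 43.7% for the lowest scores. In the weaker bins of level the medians were 51.7% to 53.3% in members, against 47.3% to 48.3% in all peaks. In the strongest bin the order was reversed, with 47.8% in members against 52.3% in all peaks. With peaks split into 5 bins of GC content, 0.370% of the lowest bin were members and 1.51% of the highest. Chromosome 11 gave 106 members (1.78% of its peaks) and chromosome 19 gave 41 (1.59%), while chromosome 12 gave 18 (0.316%). Within 10 kb of another member lay 50 members (5.0%), so they were mostly scattered single peaks and not a few long domains. The share among the 1000 lowest scores was 3.7%, so such scatter was not particular to members.

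The 10 highest scores were peaks of 300 to 600 bases with mean levels of 4.36 to 5.44, all below the median of all peaks. The Sec31a peak, in a gene for a coat protein of vesicles that leave the endoplasmic reticulum, stood at 3.99 in WT1, 5.63 in WT2, 3.05 in WT3, 4.12 in KO1, 5.98 in KO2 and 4.04 in KO3. These levels came from 9, 24, 13, 8, 40 and 3 reads. The Tnxa peak stood at 3.27 in WT1, 6.02 in WT2, 3.65 in WT3, 5.59 in KO1, 6.24 in KO2 and 4.04 in KO3. At both peaks the number 2 libraries were the highest of all, and KO1 came near them at Tnxa. The peak upstream of Pnkd, a gene for a hydrolase-like protein named after a movement disorder, stood at 4.93 in WT1, 5.69 in WT2, 1.73 in WT3, 4.84 in KO1, 5.68 in KO2 and 3.27 in KO3. Here both number 1 libraries were nearer to number 2 than to number 3. The remaining ones had scores from 1.83 upwards, and among them were peaks in Dhx32 (an RNA helicase), in Ccdc162, upstream of Efna2 (an ephrin, ligand of Eph receptors), upstream of H2-Aa, and in unnamed DNA of chromosomes 9 and 18.

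H2-Aa encodes the alpha chain of an MHC class II molecule, which presents peptides to helper T cells. Its peak at chr17:34280551-34281150 stood at 4.31 in WT1, 6.24 in WT2, 4.70 in WT3, 5.29 in KO1, 7.09 in KO2 and 5.03 in KO3. Nearby members lay in H2-Ab1, the matching beta chain, and in H2-Ob, part of a molecule that tempers peptide loading. The H2-Ob peak stood at 3.05 in WT1, 5.97 in WT2, 4.64 in WT3, 5.03 in KO1, 5.87 in KO2 and 4.31 in KO3. The H2-Ab1 peak stood at 3.27, 6.24 and 4.31 in WT1 to WT3 and at 4.93, 5.68 and 5.52 in KO1 to KO3. At H2-Aa and H2-Ob the number 2 libraries stood clear of the rest, and at H2-Ab1 KO3 came close to KO2. The next peaks with a name, leaving out Gm and Rik gene models, lay in Ece2 (an endothelin-converting peptidase), Sh3rf1 (a ubiquitin ligase and scaffold), Wdr41, Fbxw4 (an F-box protein) and upstream of Pisd, which makes phosphatidylethanolamine in mitochondria. Their scores ran from 1.65 to 1.81. The Fbxw4 peak, a stronger one, stood at 7.79 in WT2 and 7.41 in KO2, against 5.63 to 6.64 in the other 4 libraries, and the Pisd peak at 7.91 and 7.99, against 6.03 to 6.74.

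**Figure D3:**
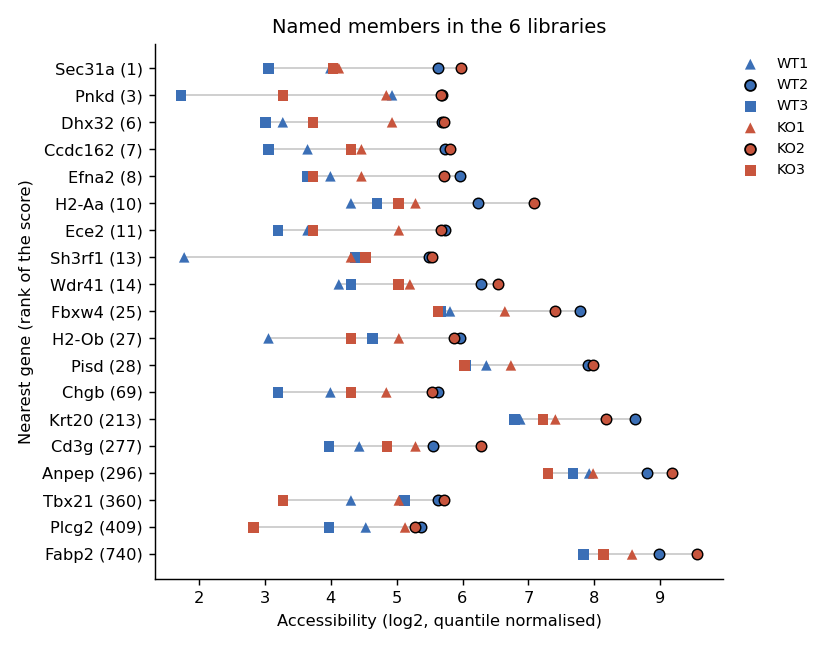
Quantile-normalised log2 accessibility of 19 named members in the 6 libraries, with colour for genotype and marker shape for replicate number. The 12 highest-scoring named genes other than Gm and Rik models come first, followed by members of the enterocyte, enteroendocrine, T cell and tuft cell lists, and the outlined circles of WT2 and KO2 lie at the right end of nearly every line.

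A few genes held several members. Dip2b, Ulk4 (a pseudokinase), Ssh2 (a phosphatase that activates cofilin) and Greb1 (an oestrogen-responsive gene) had 3 each. Gm20388 had 7 of its 244 peaks, but this transcript spans several other genes, among them Galnt2, Gse1, Banp, Ankrd11 and Piezo1. SNORA17, a small nucleolar RNA, had 5 of 397 peaks, on chromosomes 12, 13, 16, 17 and 18, because the name is shared by many gene copies. Of the other multiply hit genes Dip2b had 20 peaks in all, Ssh2 14, Ulk4 13 and Greb1 9. Most peaks of these genes were thus not members.

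Genes of absorptive enterocytes were among the few strong members. Krt20, a keratin of differentiated epithelium, stood at 8.62 in WT2 and 8.18 in KO2, against 6.88 in WT1, 6.79 in WT3, 7.41 in KO1 and 7.22 in KO3. Anpep, the brush-border aminopeptidase N, stood at 8.81 and 9.18, against 7.92 in WT1, 7.68 in WT3, 7.98 in KO1 and 7.30 in KO3. Number 2 libraries lay clear of the rest at both genes, on 47 to 171 reads at Krt20 and 50 to 296 at Anpep. The choice of members by score favours this order. Fabp2, the intestinal fatty acid binding protein, stood at 8.98 and 9.56, against 7.84 to 8.58. Over the list of 26 enterocyte genes, 3 of 97 peaks were members, 74.2% had a score above 0 against 50.8% of all autosomal peaks, and the median score was 0.317 against 0.00782. The summed level of the list was 14.55 in WT2 and 14.49 in KO2, and 14.06 to 14.21 in the other 4 libraries (log2). Fewer cells of a type and less open chromatin per cell cannot be told apart in such bulk libraries.

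Other lists shifted the same way with few members. Tuft cell genes had 1 member of 44 peaks, in Plcg2 (a phospholipase of the taste-like signalling of these cells), and 75% of their scores lay above 0 with summed levels of 12.13 to 12.19 in the number 2 libraries and 11.82 to 12.05 in the others. T cell genes had 2 members of 23, at Cd3g (a chain of the T cell receptor complex) and Tbx21 (the regulator of type 1 T cells), and 69.6% above 0. The Cd3g peak stood at 5.56 in WT2 and 6.28 in KO2, against 3.97 to 5.29, and the Tbx21 peak at 5.63 and 5.72, against 3.27 to 5.12. The summed T cell list stood at 11.46 and 11.53 in the number 2 libraries and at 11.16 to 11.27 in the others, while B cell and myeloid lists differed by less (10.46 against 10.27 to 10.43, and 11.18 to 11.19 against 11.07 to 11.22). Of the interferon and MHC class II list 2 of 33 peaks were members and 2 were among the 1000 lowest scores, and 69.7% were above 0. Immediate-early and stress genes had no member among 32 peaks, yet 84.4% scored above 0 with a median of 0.260. Chgb (chromogranin B of enteroendocrine cells, 1 of 33), Itgam (a myeloid integrin, 1 of 17) and Arntl (the clock factor BMAL1, 1 of 66) were the other members from the lists.

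Lists of stem, proliferating, fibroblast, smooth muscle and enteric neural cells had no member and lay lower. Scores above 0 made up 31.3% of 16 peaks at genes of proliferating cells, 43.8% of 48 at stem cell genes, 32.1% of 28 at fibroblast genes, 34.8% of 23 at smooth muscle genes and 41.7% of 12 at genes of enteric neurons and glia. The summed level of the proliferation list was 12.35 and 12.41 in WT2 and KO2 and 12.45 to 12.59 in the others. Genes of the proximal small intestine lay above the background (66.7% of 42 peaks) and those of the distal part below it (33.3% of 36). Paneth (70.0% of 10), goblet (59.3% of 27), endothelial (55.8% of 43), B cell (50.0% of 14) and fasting genes (58.2% of 55) had no member. These lists were chosen with earlier results of the data known, the shares are descriptions of what the score used, and the part of the mix of cells in the score was not tested.

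A satellite-like family was the densest group of members. 15 peaks shared more than 20 words of 25 bases with the AC242409.1 peak, a measure chosen after the data were seen, and 11 of them were members. The AC242409.1 peak is itself a member and is counted among the 15. All 15 scores were positive, from 0.513 to 1.53 with a median of 1.22. Both number 2 libraries stood above the other 4 at 14 of them, against 14.8% of all autosomal peaks. The Gm33838 peak stood at 11.36 in WT2 and 11.03 in KO2, against 9.80 in WT1, 9.27 in WT3, 9.85 in KO1 and 9.74 in KO3, on 304 to 1152 reads. The AC242409.1 peak stood at 11.31 and 10.93, against 9.79 in WT1, 9.50 in WT3, 9.87 in KO1 and 9.50 in KO3. Counting error is small at these peaks. The 2 groups of libraries did not overlap at either, an order that the choice of members by score favours. Most of the remaining family members lay at the start of chromosome 9, in Gm10722, Gm10718, Gm10717, Gm11168, Gm10720 and Gm17535, as close copies whose reads cannot be assigned to 1 place with certainty, so they do not count as separate observations. Peaks that share words with mitochondrial DNA did not follow. There were 4 with over 10% of their words, none was a member, and their scores ran from -1.80 to -0.34.

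**Figure D4:**
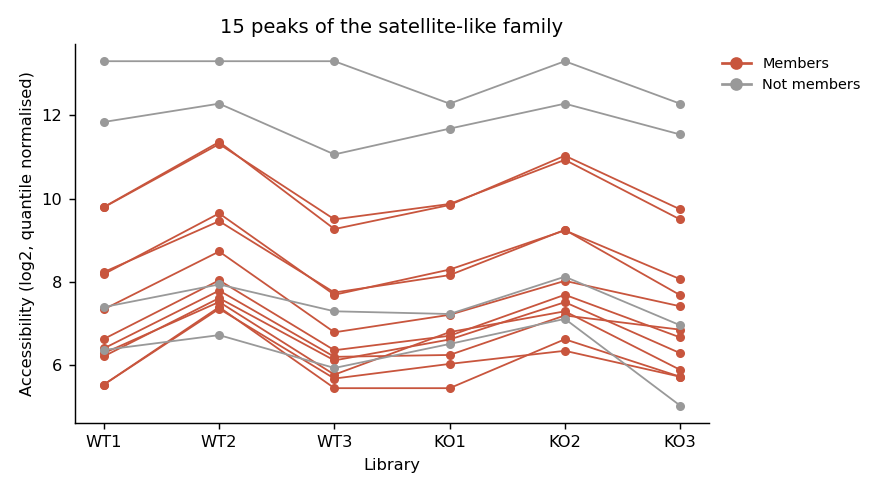
Quantile-normalised log2 accessibility in the 6 libraries of the 15 peaks that share more than 20 words of 25 bases with the AC242409.1 peak, each line joining the values of 1 peak. The 11 members (red) rise at WT2 and KO2, and the 4 other peaks (grey) stand higher there or level with the rest.

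Other strong members were not of this family. The intronic Aida peak (Aida encodes an axin-interacting protein) stood at 11.03 in WT2 and 11.10 in KO2, against 9.65 in WT1, 9.15 in WT3, 10.11 in KO1 and 8.85 in KO3. The Trub2 peak (a pseudouridine synthase of mitochondria) stood at 10.42 and 10.31, against 9.02 to 9.43, and the Mxd1 peak (a partner of MAX) at 9.75 and 9.68, against 8.26 to 8.88. These were picked after their values were seen, as the strongest members. Only 2.7% of members were among the top 10% of peaks by level.

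Motifs were searched on both strands in the central 300 bases, and a match is a description, not a binding site. Before GC content was taken into account, members had fewer matches than all peaks for motifs of several gut epithelial factors, and the 1000 lowest scores had more. CDX (TTTATNG) matched 7.5% of members, 13.1% of all peaks and 28.6% of the lowest scores. The GATA motif in the form AGATAA matched 11.9%, 16.4% and 28.5%, and HNF1 (GTTAATNAT) 0.5%, 1.10% and 4.0%. FOX (TGTTTAC) matched 3.2%, 4.41% and 9.2%, TCF and LEF (ATCAAAG) 4.1%, 4.94% and 8.3%, and IRF (GAAANNGAA) 4.1%, 7.54% and 13%. NF-Y (CCAAT) matched 26.8% of members against 38.4% of all peaks and 37.5% of the lowest scores. KLF and SP (CCGCCC) matched 6.2% against 10.6% and 7.2%, so this low share was not particular to members. AP-1 (TGANTCA) was higher in members, with 14.8% against 11.6% and 11.1%. CTCF (AGGGGGC) matched 5.5%, 4.68% and 3.0%.

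GC content and motif shares moved together, so the shares were also read within the 5 bins of GC content. In the highest bin CDX matched 3.74% of members and 3.78% of all peaks, and GATA 5.75% and 5.40%. In the lowest bin, which held 92 members, CDX matched 15.2% against 24.6% and GATA 21.7% against 28.6%. CDX was below the share of all peaks in every bin, least in the highest, and GATA was below it in 3 of the 5 bins. FOX was above it in 2 bins (8.70% against 7.36%, and 3.72% against 3.61%), as was HNF1 (0.676% against 0.545%, and 0.287% against 0.152%, from 2 members and 1 member). AP-1 stayed above the background in every bin, from 12.6% against 5.88% in the highest to 18.5% against 14.9% in the lowest. NF-Y stayed below it in every bin (23.6% against 26.7%, and 31.5% against 40.2%). For AP-1 the lowest scores were also above it in the highest bin (10.9%, of 64 peaks) and the middle bin (13.04% against 12.35%). They were below it in the other bins. For NF-Y they were below it in every bin but the one next to the highest (38.4% against 37.5%), with 17.2% in the highest. The NF-Y shortfall was thus not particular to members, nor was the AP-1 surplus in the highest bin. The shares of the remaining motifs, in members against all peaks, were low or close. They were HNF4 (CAAAGTCCA, 1.2% against 1.29%), CREB (TGACGTCA, 0.7% against 0.379%), ETS (CCGGAAGT, 0.1% against 0.793%), PU.1 (GAGGAAGT, 3.4% against 3.08%), RUNX (TGTGGTTT, 2.1% against 1.84%) and NF-kB (GGGACTTTC, 0.4% against 0.438%). They also comprised the E-boxes CACGTG (5.2% against 4.47%) and CAGCTG (18.2% against 17.98%), the steroid receptor element ACANNNTGT (10.2% against 9.44%), TEAD (GGAATG, 16.1% against 17.1%), SOX (CCATTGT, 4.2% against 4.20%) and NRF1 (GCGCATGCG, 0.1% against 0.25%).

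**Figure D5:**
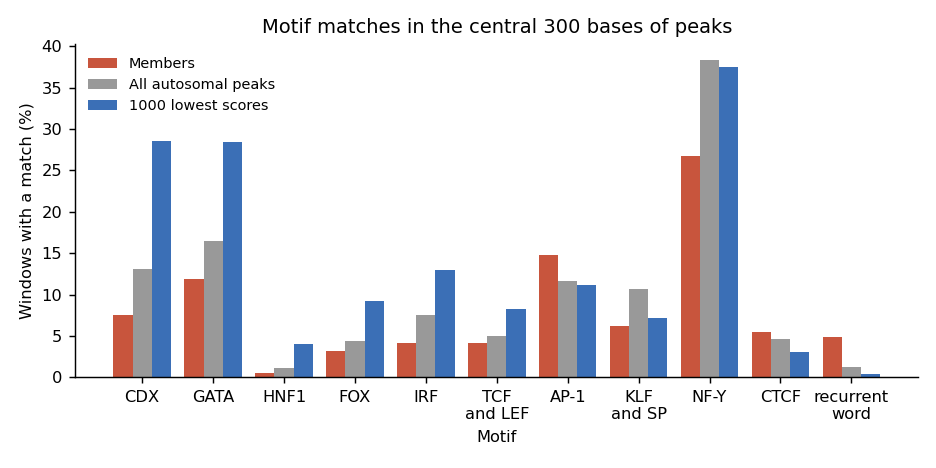
Share of central 300-base windows with a match (%, bars from 0) for 10 motifs and for the recurrent word, in members, all autosomal peaks and the 1000 lowest scores. Matches to CDX, GATA, HNF1, FOX and IRF were most frequent in the lowest scores and least frequent in members, whereas AP-1 was the most frequent in members.

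The word GAGCTGGCC, shown in the sequences near the start, occurred in 4.9% of members, 1.19% of all peaks and 0.4% of the lowest scores. Of its 49 members 46 lay in the highest bin of GC content, where it matched 13.2% of members and 3.50% of all peaks. Their windows had a median GC content of 58.3%. The 1451 autosomal peaks that held it had a median score of 0.178. The letters of this word and of AAACGTGA (1.3% of members, 0.219% of all peaks) were chosen on these peaks, so their surplus is a description.

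Genotype was the next question. The score weights both genotypes alike, although it uses the same 6 columns. At the members no difference between Smarcad1-KO and WT passed the limma test with Benjamini-Hochberg adjustment over all autosomal peaks (0 of 1000 at an adjusted p below 0.05, smallest adjusted p 1), and 3 of 122141 passed in all (0.00246%). At an unadjusted p below 0.05 there were 20 members (2.0%), against 3.19% of all peaks, and all 20 were higher in KO, against 1.67% of all peaks. The median difference, KO minus WT, was 0.235 (quartiles 0.018 and 0.486) with a median SE of 0.437, and 767 members were higher in KO, against -0.004 and 49.2% over all peaks. Part of that SE is set by the choice, which takes peaks where number 2 stands apart within each genotype. The median difference turned to -0.024 without WT3 and to -0.120 without KO2. It was 0.027 without WT1, 0.699 without WT2 and 0.518 without KO3. Members stayed fixed in these fits and were chosen for high WT2 and KO2 against the other libraries. Leaving out a library therefore moves the difference, and the counts that follow, by construction. These values cannot show how far its direction rests on single libraries. The 20 members became 348 without WT2 (6.04% of all peaks) and 125 without KO3 (4.14%). They became 10 without WT3 (2.55%), 3 without WT1 (1.75%) and 26 without KO2 (4.16%), the last all lower in KO, and these 3 counts lay below the background. No member passed the adjusted threshold in any of these fits.

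The 3 members with the smallest p that were higher in KO lay in intergenic DNA at chr11:61597801-61598100, in Dscr3 (part of a complex that returns cargo from endosomes) and in Ccdc57. The first stood at 3.77 in WT1, 4.84 in WT2, 3.05 in WT3, 5.20 in KO1, 5.95 in KO2 and 4.86 in KO3, a difference of 1.45 (SE 0.455, limma unadjusted p 0.00679, adjusted p 1). All 3 KO libraries lay above all WT libraries there, KO3 only just above WT2. At Dscr3 the difference was 1.14 (SE 0.387) and at Ccdc57 1.35 (SE 0.473). Those with the smallest p that were lower in KO, at chr11:40603051-40603500 (-1.13, SE 0.529), in Fam187b (-0.70, SE 0.395) and at chr3:19120201-19120500 (-0.90, SE 0.533), had unadjusted p of 0.0516, 0.098 and 0.115. None of the 6 passed the adjusted threshold in this fit.

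The other 4 libraries were not alike either. The contrast of number 1 with number 3, fitted in limma with genotype as a term, called 3 members higher in number 1 (adjusted p below 0.05) and none lower, against 0.00901% of all peaks called higher (11 peaks). At an unadjusted p below 0.05, 213 of 1000 members were higher in number 1, against 3.73% of all peaks. Higher in number 3 were 31 members, a share similar to that of all peaks (4336 of 122141). The median difference was 0.305, against -0.002 over all peaks. In all, 723 members (72.3%) were higher in number 1, against 49.8% of all peaks. Without KO1 the median was 0.10 and the count 566. At 302 members both number 1 libraries stood above both number 3 libraries, against 16.9% of all peaks and 3.3% of the lowest scores. The called members were Aida (0.88, SE 0.101, limma adjusted p 3.46e-07), a peak downstream of Coil, which organises Cajal bodies (0.80, SE 0.153, adjusted p 0.0219), and a SNORA17 peak on chromosome 18 (1.53, SE 0.308, adjusted p 0.0498). The count of called members was 27 without WT1 (0.131% of all peaks called), 12 without WT2 (0.0475%) and 11 without KO2 (0.0426%). With values as deposited it was 48 of 1000, below the 5.45% of all peaks called there. At the 3 called members the number 1 libraries lay between number 3 and number 2. Median reads in members were 15 and 18 in the number 1 libraries, against 28 and 7 in WT3 and KO3, and the part of depth in this contrast was not tested. The score weights numbers 1 and 3 alike but subtracts these same 4 libraries, whose spread differs (SD of log2 from 1.23 in WT1 to 1.48 in KO3), so the contrast was not shown to be independent of the choice.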

How the data were processed

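ATAC-seq libraries from crypt nuclei of 3 WT and 3 Smarcad1-KO mice were sequenced as paired 50 bp reads. The authors trimmed reads with Trim Galore (0.4.1), mapped them to GRCm38 with Bowtie2 (2.2.5), removed duplicates and low mapping qualities, and called 1 set of MACS peaks in SeqMonk, with the libraries pooled for it not stated. The deposited log2 values are read counts per peak scaled to the largest library. A deposited table of the authors' edgeR calls holds their own comparison and was not used. Groups and numbers came from sample titles.

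On the linear scale 100% of values in each library were whole multiples of 1 read (within 0.02), which gave the reads. Peaks with no read hold 0.9 of that step. PCR reads are not independent molecules.

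The 6 columns were quantile normalised over 122141 autosomal peaks with limma 3.58.1 (R 4.3.3), with no filter or pseudocount. KO was tested against WT, and number 1 against number 3 with genotype as a term, by lmFit and eBayes(trend=TRUE) over all autosomal peaks, two-sided, with Benjamini-Hochberg adjustment and a threshold of 0.05. With 3 libraries a group, p-values measure the spread between these libraries, part of which may be technical. The fits were tested on simulated data with known changes. Gene starts, exons and introns came from GENCODE vM21, and sequences from the RefSeq copy of GRCm38 (Python 3.11.15, pandas 2.3.3, numpy 2.4.6). Alternatives were other scalings, a pseudocount of 5, the weakest 25% of peaks left out, each library left out, voom on recovered reads, other thresholds, and the replicate block.

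The members, gene lists and motifs were chosen with earlier results of these data known. Named peaks were the 10 highest scores, the 12 highest with a gene name other than Gm and Rik models, 1 per gene, genes with at least 3 members, members from the lists, the 3 smallest KO p-values in each direction with any called member, and the edge of the choice. The sequence of 1 further high-scoring peak is not reported here.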

Additional observations from a re-analysis of the deposited data

How the results depend on the processing

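Under other settings the top 1000 kept between 493 and 848 of the members. It kept 493 when the weakest 25% of peaks were left out, which removes members by construction, and between 607 (without WT2) and 774 (without KO1) when 1 library was left out. The share with a gene name was 62.6% with values as deposited or centred on medians and 71.6% without the weakest peaks, and it ranged from 63.3% to 67.8% with 1 library left out. All stayed above the 49.95% of all peaks. The promoter share ranged from 7.1% to 9.3% with 1 library left out. Peaks chosen on KO alone had WT2 highest at 439 with values as deposited, an alternative added after seeing the data.

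No member was called in KO against WT under the other scalings, thresholds, voom or with 1 library left out (0 in each), and members at an unadjusted p below 0.05 ranged from 3 (without WT1, or without the weakest peaks) to 348 (without WT2). The median difference reversed to -0.024 without WT3 and -0.120 without KO2, in a range of -0.120 to 0.699. Members stayed fixed and were chosen for high WT2 and KO2, so leaving out a library moves this difference and these counts by construction. Same-numbered libraries had correlations of 0.045, 0.40 and 0.32 for numbers 1, 2 and 3 after removing group means, so the numbers were not taken to pair the samples. With the replicate block 2 members were called (216 of all peaks, 0.177%), the Ccdc57 peak (1.35, limma adjusted p 0.0356) and a peak at chr17:29989351-29990250. On values as deposited the replicate block called 1 member (258 of all peaks, 0.211%). Members at an unadjusted p below 0.05 numbered 177 with the block, against 7.55% of all peaks.

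Members called in number 1 against number 3 were 48 with values as deposited (5.45% of all peaks called) and 15 with median centring (0.233%). They were 6 with a pseudocount of 5 (0.0196%), 7 without the weakest peaks (0.0284%), 6 with voom (0.0352%) and 1 with no genotype term (0.00327%). Called members were 1 at a limma adjusted p below 0.01 and 9 below 0.1, with the shares of all peaks there not computed. Called members ranged from 3 to 27 with 1 library left out, with 27 without WT1, 12 without WT2 and 11 without KO2. The median difference ranged from 0.10 to 0.517. The Aida call was lost with median centring alone (adjusted p 0.144), and the Coil and SNORA17 calls were lost in 7 and 5 settings. The causes were not tested. Depth limits KO3 most, where 1 read counts as 3.99 and 32 peaks had no read.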
